A study of Homo sapiens with 22 samples.

Results

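Prostate long noncoding RNAs were followed by name, and 9 of the 10 chosen have rows among the 20242 gene symbols of the deposited tables: PCA3, PCGEM1, PCAT1, SCHLAP1, CTBP1-AS, DRAIC, SOCS2-AS1, DANCR and OIP5-AS1. PCAT14 has no row of that name and was not analysed here. The set was defined by symbol, and every exon, intron and antisense row of those symbols was taken. RNA was recovered by immunoprecipitation of PSF (SFPQ), a nuclear RNA-binding protein, and each PSF-RIP library has an input library of the same line and treatment. The 3 human prostate cancer lines were 22Rv1, a line labelled LTAD that was kept in medium with charcoal-stripped serum, and LNCaP. Each line was given 10 nM dihydrotestosterone (DHT) or ethanol vehicle for 24 h after steroid-poor culture, which makes 12 libraries, 1 for each combination of line, treatment and assay. What the letters LTAD stand for is not stated in the labels. In LNCaP, ultraviolet crosslinking (CLIP) gave 2 lists of PSF peaks with DHT and 2 with vehicle. The 12 libraries have no replicate of the same line, treatment and assay, so tests across libraries pool the lines or the treatments and their p-values measure only that spread. How separate the cultures were is not stated.

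These RNAs fall into 3 kinds by what is known of them. CTBP1-AS and SOCS2-AS1 are antisense or divergent transcripts beside the coding genes CTBP1 and SOCS2 and are known as androgen-responsive; CTBP1-AS is also known to bind PSF and to repress CTBP1, a transcriptional corepressor gene. SCHLAP1, which antagonises the SWI/SNF chromatin remodelling complex, PCAT1, PCA3 and PCGEM1 are known for their raised or restricted expression in prostate tumours, and PCA3 serves as a urine marker. DRAIC is described as an inhibitor of cell invasion, DANCR as a repressor of differentiation in several cell types, and OIP5-AS1 as a broadly expressed RNA.

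Input libraries held 1073228 to 3014049 mapped reads and PSF-RIP libraries 4641602 to 10439461, so values in PSF-RIP rest on more reads. FKBP5, an androgen-induced gene that checks the hormone label, was higher with DHT in both assays (log2 3.23 ± 0.22, adjusted p = 2.17e-05, in PSF-RIP and 3.14 ± 0.23, adjusted p = 5.49e-05, in input, edgeR quasi-likelihood test). KLK3, a second androgen target, missed the threshold (1.72 ± 0.54, adjusted p = 0.112, in PSF-RIP and 1.83 ± 0.65, adjusted p = 0.293, in input), and passed it without 22Rv1 (adjusted p = 0.00525 in PSF-RIP and 0.0149 in input). All 8 luminal prostate markers had reads. The 3 basal markers with rows, of 4 listed, summed to at most 7.24 CPM (reads scaled to library size) in PSF-RIP and 2.44 in input, where TP63 was at 0 reads, against a luminal sum of at least 1749 in PSF-RIP and 1799 in input. The 4 stromal markers summed to 24.6 to 38.5 CPM in PSF-RIP and 12.2 to 37.4 in input, and the 4 leukocyte and endothelial markers to 2.26 to 24.8 and 3.66 to 43.7 CPM, with PECAM1 at 0 reads in input. These are bulk libraries, so fewer cells of a kind and less RNA per cell cannot be told apart. Levels below are CPM of exon reads on library sizes scaled by edgeR's trimmed mean of M-values (TMM), and levels per length are the same values per kilobase of exon (RPKM).

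Per exonic length, DANCR was highest in every input library, at 64.9 and 87.8 RPKM in 22Rv1 (DHT and vehicle), 147 and 203 in LTAD, and 225 and 194 in LNCaP. OIP5-AS1 followed in 22Rv1, at 52.3 and 46.7 RPKM, and in LTAD, at 18.3 and 17.1. In LNCaP the second place belonged to SCHLAP1, at 25.6 and 32.5 RPKM, with OIP5-AS1 at 18.4 and 15.2. DRAIC lay between 2.90 and 8.95 RPKM in all 6 inputs. PCA3 had 3 exon reads in the 12 libraries together, 1 in each of the LNCaP DHT PSF-RIP, LTAD DHT PSF-RIP and 22Rv1 DHT input libraries. PCGEM1 had 1 read in all, in the 22Rv1 vehicle PSF-RIP library. Neither of these RNAs passed the expression filter, and their hormone or PSF response was not detectable at this depth. The filter left 6 of the 9 for the comparison of PSF-RIP with input and 7, with SOCS2-AS1, for the others.

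**Figure D1:**
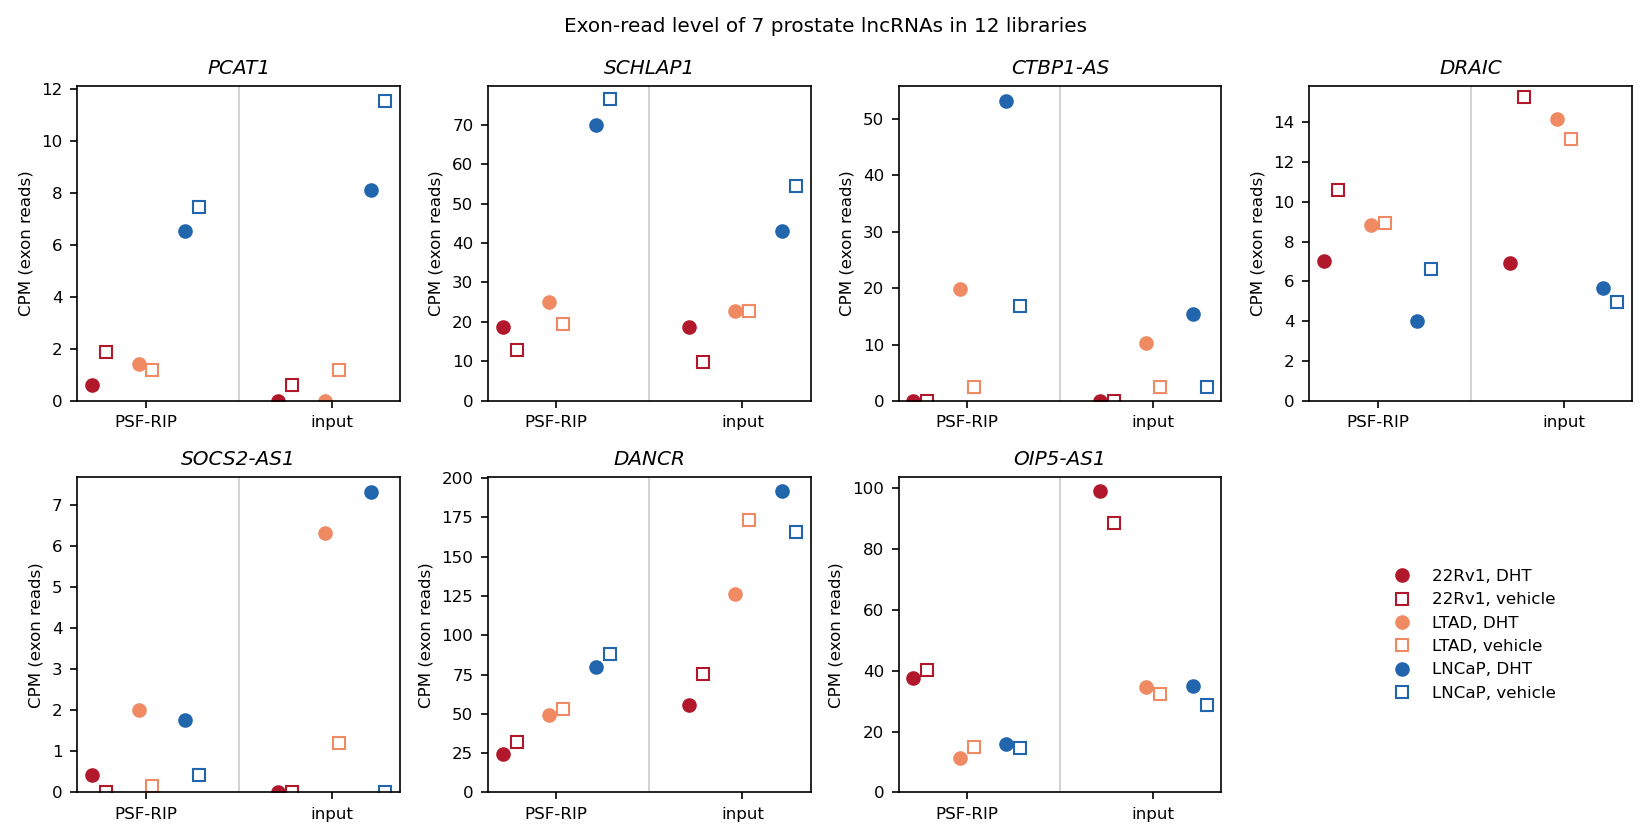
Exon-read level (y axis, CPM, linear and starting at 0) of the 7 tested RNAs in the 12 libraries, PSF-RIP left of input, with lines by colour, DHT as filled circles and vehicle as open squares. CTBP1-AS is at 0 in all 22Rv1 libraries, PCAT1 and SCHLAP1 are highest in LNCaP, and OIP5-AS1 is highest in 22Rv1.

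CTBP1-AS (NR_104331, hg19 chr4:1203908-1212379, plus strand) is transcribed against the 3′ part of CTBP1, with which its span shares 7152 bases. In PSF-RIP it had 212 exon reads with DHT and 79 with vehicle in LNCaP, and 169 with DHT and 17 with vehicle in LTAD. In input it had 19 and 3 reads in LNCaP and 13 and 2 in LTAD, again with DHT and vehicle. All 4 libraries of 22Rv1 held 0. As levels, PSF-RIP gave 53.2 CPM with DHT and 16.9 with vehicle in LNCaP, and 19.9 and 2.49 in LTAD. Within each of the 2 lines the DHT library lay above the vehicle library in both assays, and in PSF-RIP the LTAD DHT level lay only slightly above the LNCaP vehicle level. In input the levels were 15.4 and 2.47 CPM in LNCaP and 10.2 and 2.39 in LTAD.

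DHT raised CTBP1-AS in PSF-RIP by log2 2.15 ± 0.30 (SE; edgeR quasi-likelihood test over all genes, adjusted p = 0.0053). The ratio of DHT to vehicle reads was 3.15 in LNCaP (exact 95% interval 2.42 to 4.14, counting error only) and 7.97 in LTAD (4.83 to 14). In input the difference was of like size, log2 2.40 ± 0.71, but with 32 reads against 5 it did not pass (adjusted p = 0.207, unadjusted p = 0.00659). CTBP1-AS was the only one of 7 tested RNAs called with DHT in PSF-RIP, where 2.9% of all genes were called, 1.5% higher and 1.39% lower. None of 7 was called in input, where 0.617% of all genes were. There 2 of the 7, CTBP1-AS and SOCS2-AS1, had an unadjusted p under 0.05. Of these, SOCS2-AS1 passed the expression filter only through libraries with DHT. Without the expression filter CTBP1-AS passed in input as well (adjusted p = 0.0143), and DESeq2 gave it no adjusted p in PSF-RIP at log2 2.23.

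The introns of CTBP1-AS followed its exons. They held 130 and 33 reads in PSF-RIP of LNCaP with DHT and vehicle, 121 and 14 in LTAD, and 0 in 22Rv1. In input they held 15 and 3 reads in LNCaP and 7 and 1 in LTAD. DHT raised the intron reads in PSF-RIP by log2 2.72 ± 0.29 (adjusted p = 1.87e-05, edgeR), 1 of 5 tested RNAs called, against 1.29% of all genes with intron rows. The coding partner CTBP1 was at 227 and 229 CPM in 22Rv1 PSF-RIP, 259 and 306 in LTAD and 210 and 229 in LNCaP, with DHT and vehicle. CTBP1 differed with DHT by log2 -0.13 ± 0.11 in PSF-RIP (adjusted p = 0.573) and -0.23 ± 0.12 in input (adjusted p = 0.483), neither past the threshold.

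PSF-RIP held more CTBP1-AS than input. The fitted difference was log2 1.58 ± 0.33 (adjusted p = 0.00046, edgeR) for exons and 1.33 ± 0.31 (adjusted p = 0.00457) for introns. In LNCaP the ratio of PSF-RIP to input was 3.45 with DHT (exact 95% interval 2.16 to 5.85) and 6.82 with vehicle (2.25 to 33.8). In LTAD it was 1.94 with DHT (1.10 to 3.72) and 1.04 with vehicle (0.247 to 9.30, from 17 and 2 reads). Without LNCaP the exon difference was log2 0.82 and did not pass (adjusted p = 0.128). The intron call was lost without LNCaP (1.28, adjusted p = 0.116), without LTAD (1.37, adjusted p = 0.0548), without the LNCaP DHT pair (1.31, adjusted p = 0.0577) and with DESeq2 (1.12, adjusted p = 0.078). The difference in enrichment between LTAD and LNCaP was -1.36 ± 0.70 (unadjusted p = 0.0823, adjusted p = 0.925), and for 22Rv1 it could not be estimated.

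In 22Rv1 the opposite strand of the same span, which carries CTBP1, held 797 and 1333 reads in 22Rv1 PSF-RIP with DHT and vehicle and 172 and 205 in input. The CTBP1-AS strand held 0 exon or intron reads against these 2507, which allows a share of reads on the wrong strand of up to 0.12% (3 counts). In PSF-RIP CTBP1-AS was at least 143-fold lower in 22Rv1 than in LNCaP (0 against 291 reads, with 3 reads over both 22Rv1 libraries taken as the limit) and at least 51.7-fold lower than in LTAD (186 reads). In input it was at least 9.23-fold lower than in LNCaP (22 reads) and at least 7.32-fold lower than in LTAD (15 reads), calls that were lost without the 22Rv1 DHT pair (adjusted p = 0.111 and 0.165). The CTBP1 strand of the span was itself higher in PSF-RIP than in input, by log2 0.47 ± 0.12 (adjusted p = 0.00359, edgeR), 1 of 3 tested antisense rows, where 35.6% of all antisense rows were called. CTBP1 exons gave 0.42 ± 0.08 (adjusted p = 0.000208).

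In the CLIP lists CTBP1-AS had 1 peak in each of the 4, and in each the peak overlapped the last exon and ran past the end of the RNA into the remaining span of CTBP1. Its score was 478 in the first DHT list and 3100 in the second, against 193 in the first vehicle list and 3100 in the second. It ranked 421 of 23580 and second of 13546 in the DHT lists, and 3742 of 24242 and second of 7691 in the vehicle lists. The value 3100 was shared by 3 peaks in the second DHT list and 28 in the second vehicle list, so the rank is a tie. The lists give no strand, so peaks of CTBP1-AS and of CTBP1 cannot be told apart here.

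SOCS2-AS1 (NR_038263, hg19 chr12:93959404-93965174, minus strand) starts 283 bases from SOCS2, a suppressor of cytokine signalling, which runs the other way. Its exon reads were few: 2 and 0 in 22Rv1 PSF-RIP with DHT and vehicle, 17 and 1 in LTAD, and 7 and 2 in LNCaP. In input they were 0 and 0 in 22Rv1, 8 and 1 in LTAD, and 9 and 0 in LNCaP. In both assays, every LTAD and LNCaP library with DHT held more reads than its vehicle library. Over the lines, 26 reads against 3 in PSF-RIP gave a ratio of 9.73 (exact 95% interval 2.98 to 50.2), and 17 against 1 in input gave 15.9 (2.49 to 664). The fitted differences did not pass over all genes, at log2 2.82 ± 0.78 in PSF-RIP (adjusted p = 0.0812, unadjusted p = 0.00374, edgeR) and 3.63 ± 1.16 in input (adjusted p = 0.235, unadjusted p = 0.00913). SOCS2-AS1 passed the expression filter for these tests only through input libraries with DHT, where it was higher. Its p-values thus partly reflect that filter. Its introns held 14 and 12 reads in LNCaP PSF-RIP and 26 and 6 in LTAD PSF-RIP, with a fitted difference of 1.25 ± 0.49 (adjusted p = 0.366).

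SOCS2 itself rose with DHT in PSF-RIP by log2 2.19 ± 0.25 (adjusted p = 0.000724) and in input by 2.04 ± 0.35 (adjusted p = 0.0206, edgeR). SOCS2 was at 64.7 CPM with DHT and 10.6 with vehicle in LTAD PSF-RIP, 35.1 and 11.7 in LNCaP, and 3.93 and 0.629 in 22Rv1. The input call for SOCS2 was lost without 22Rv1 (adjusted p = 0.13) and without LTAD (adjusted p = 0.282), and also without either treatment pair of these lines (adjusted p from 0.126 to 0.255). Both neighbours were scarcest in 22Rv1: SOCS2 was lower there than in LNCaP input by log2 -3.28 ± 0.56 (adjusted p = 0.000475), and SOCS2-AS1 had 0 reads against 9, at least 3.78-fold lower (adjusted p = 0.0217). That call of SOCS2-AS1 was lost with DESeq2 (adjusted p = 0.141), without the 22Rv1 DHT pair (0.535) or vehicle pair (0.0618) and without the LNCaP DHT pair (1). SOCS2-AS1 did not pass the filter for PSF-RIP against input. It had 29 reads in PSF-RIP and 18 in input, a ratio of 0.334 (exact 95% interval 0.18 to 0.64) on the scaled library sizes. Where other settings let SOCS2-AS1 through the filter it was called lower in PSF-RIP, by log2 -1.46 to -1.70 (adjusted p from 0.00535 to 0.0311). Settings that kept a filter let it in only through input libraries, where it was higher, so those calls partly reflect the filter. With no filter, SOCS2-AS1 was called at log2 -1.47 (adjusted p = 0.0311, edgeR). None of the 4 CLIP lists had a peak in its span.

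**Figure D2:**
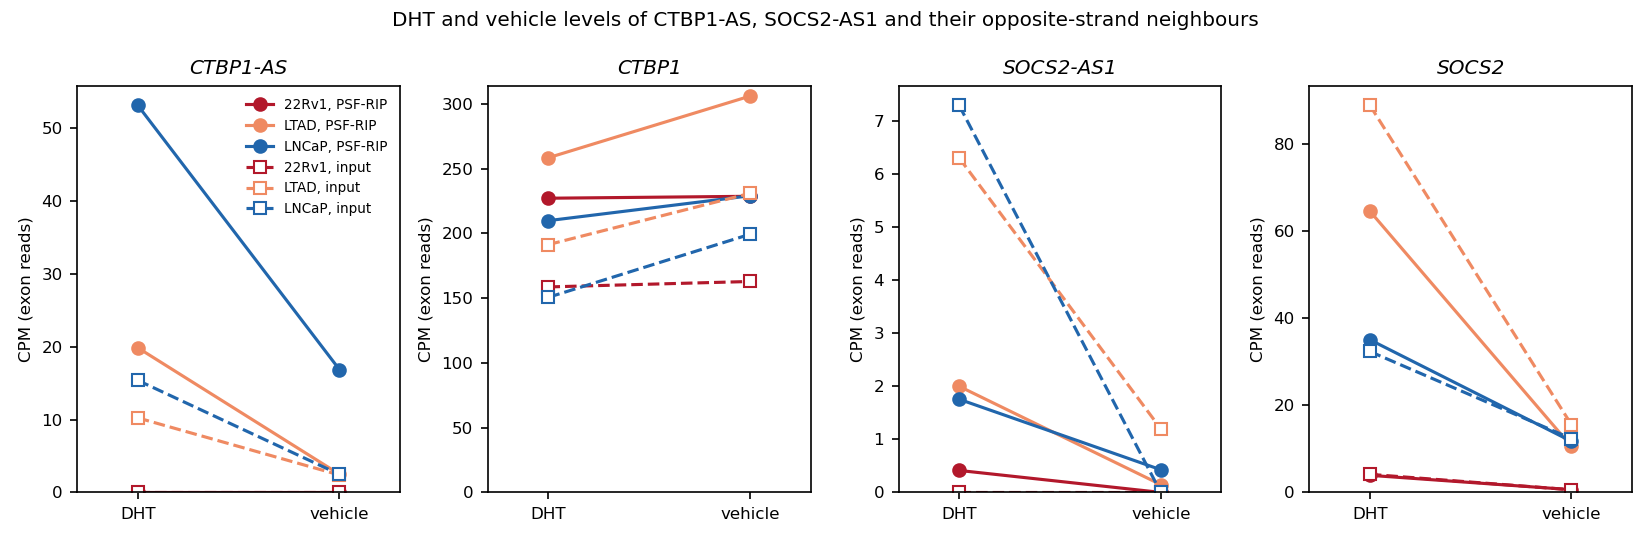
Exon-read levels (y axes, CPM, linear from 0) with DHT and with vehicle for CTBP1-AS, CTBP1, SOCS2-AS1 and SOCS2, each line joining the 2 libraries of 1 cell line and assay (solid for PSF-RIP, dashed for input). CTBP1-AS and SOCS2 are higher with DHT in LTAD and LNCaP in both assays, SOCS2-AS1 likewise on few reads, and CTBP1 lies lower with DHT in every pair.

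SCHLAP1 (NR_104322, hg19 chr2:181556831-181781666, plus strand) spans 224836 bases, of which 1675 are exonic. Its exons held 91 and 103 reads in 22Rv1 PSF-RIP with DHT and vehicle, 213 and 132 in LTAD, and 279 and 358 in LNCaP. In input they held 27 and 16, 29 and 19, and 53 and 66 reads in the same order. SCHLAP1 was lower in 22Rv1 than in LNCaP, by log2 -2.23 ± 0.23 in PSF-RIP (adjusted p = 5.23e-06, edgeR) and -1.79 ± 0.32 in input (adjusted p = 0.000623). It was lower in LTAD than in LNCaP in PSF-RIP, by -1.73 ± 0.22 (adjusted p = 0.000263), while -1.10 ± 0.32 in input missed the threshold (adjusted p = 0.052). The input difference passed without the expression filter (adjusted p = 0.00562), without the LNCaP DHT pair (0.0192) and with the length trend removed (0.0384). The downstream coding gene UBE2E3, a ubiquitin-conjugating enzyme gene, ran the other way and was higher in 22Rv1 than in LNCaP input by log2 3.53 ± 0.31 (adjusted p = 3.28e-06).

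Most SCHLAP1 reads were intronic. Of exon and intron reads together, introns took 94.9% and 95.5% in 22Rv1 PSF-RIP with DHT and vehicle, 86.8% and 90.2% in LTAD, and 86.6% and 79.3% in LNCaP. In input the share was 90.1% and 91.7% in 22Rv1, 80.9% and 81.6% in LTAD, and 87.7% and 84.2% in LNCaP. In PSF-RIP the exact 95% intervals of the 22Rv1 shares (93.7% to 95.8% and 94.5% to 96.3%) did not overlap those of the other 4 libraries, the highest of which reached 91.7%. In input the 22Rv1 intervals (86% to 93.4% and 86.8% to 95.2%) overlapped those of LNCaP (84.2% to 90.6% and 80.3% to 87.5%). These intervals cover counting error only, and the difference between lines was not tested over samples. Summed over all genes and isoforms, PSF-RIP with vehicle held 6974972 intron and 19385042 exon counts in 22Rv1. The same sums were 3275113 and 14272474 in LTAD, and 3531981 and 10694786 in LNCaP. As levels, the introns of SCHLAP1 stood at 347 and 274 CPM in 22Rv1 PSF-RIP, 165 and 178 in LTAD and 451 and 293 in LNCaP. In PSF-RIP the 22Rv1 intron levels thus lay near the LNCaP vehicle level, whereas the exon levels, 18.8 and 13.0 CPM in 22Rv1, lay far below 70.0 and 76.4 in LNCaP. In input the introns were lower in 22Rv1 than in LNCaP, at 171 and 107 CPM against 305 and 289, with LTAD at 96.9 and 101.

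**Figure D3:**
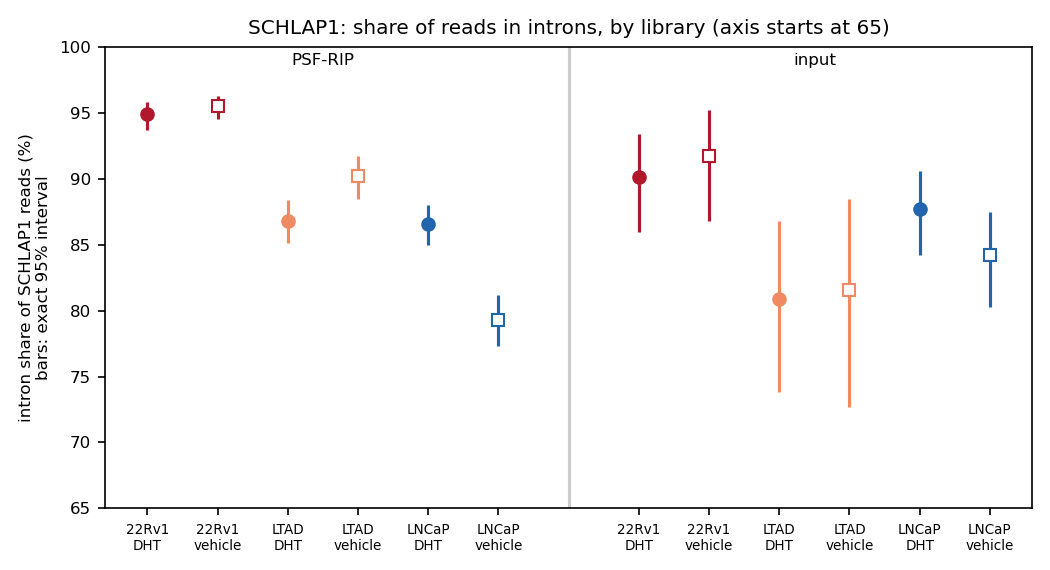
Share of SCHLAP1 reads in introns (y axis, percent, starting at 65) in each of the 12 libraries, PSF-RIP left of input, with exact 95% binomial intervals as bars, colour by line and filled circles for DHT. The 22Rv1 PSF-RIP libraries, at 94.9% and 95.5%, lie above the other 4 PSF-RIP libraries.

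The introns of SCHLAP1 were higher in PSF-RIP than in input by log2 0.72 ± 0.16 (adjusted p = 0.00219, edgeR), and its exons by 0.31 ± 0.16, which did not pass (adjusted p = 0.107). SCHLAP1 and CTBP1-AS were the 2 of 5 RNAs whose intron rows were called in this comparison, against 19.7% of all genes with intron rows, 10.8% higher and 8.85% lower. Over the 5, the median log2 difference was 0.44, against 0.06 over all intron rows. The exon difference of SCHLAP1 did pass without the expression filter (adjusted p = 0.0419), without the LTAD vehicle pair (0.0447), with the length trend removed (0.0116) and with the line and treatment pairs as a block (0.0244). With DHT the introns differed by 0.60 ± 0.18 in PSF-RIP (adjusted p = 0.132) and the exons by 0.23 ± 0.18 (adjusted p = 0.548), neither past the threshold, although the introns passed without the expression filter (adjusted p = 0.0484).

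SCHLAP1, which has the longest span of these RNAs, also carried most of the CLIP peaks. Its span held 19 and 12 peaks in the 2 DHT lists and 20 and 2 in the 2 vehicle lists. This is 8.45 and 5.34 peaks per 100 kb with DHT and 8.90 and 0.89 with vehicle, against 1.48 and 0.674 with DHT and 1.54 and 0.226 with vehicle over all gene spans. Per length CTBP1-AS and PCA3, whose spans overlap CTBP1 and PRUNE2, were denser in most lists. CTBP1-AS had 11.8 peaks per 100 kb, from 1 peak, in each list. PCA3 had 25.9 and 8.6 with DHT and 17.3 and 0 with vehicle. Among the 3009 genes of 100 kb or more, 0.997% and 0.598% had as many peaks per length as SCHLAP1 or more in the DHT lists, and 0.831% and 7.01% in the vehicle lists. Those genes were taken by length alone and not matched for their level in LNCaP. Of them, 58% and 55.2% had any peak in the DHT lists and 58.7% and 31.7% in the vehicle lists. The strongest peak lay in intron 5 in every list, with scores of 2103 and 811 with DHT and 2632 and 242 with vehicle, and ranked 24, 32, 23 and 442 in those lists. A peak in intron 1 was the other place that all 4 lists share. The middle 300 bases of both shared places are given on the strand of the RNA, with the longest run of purines or pyrimidines in capitals, because they are the intronic places of SCHLAP1 found in both lists of each treatment. They lie at chr2:181562305-181562604 (intron 1) and chr2:181709234-181709533 (intron 5) of hg19.
SCHLAP1 intron 1: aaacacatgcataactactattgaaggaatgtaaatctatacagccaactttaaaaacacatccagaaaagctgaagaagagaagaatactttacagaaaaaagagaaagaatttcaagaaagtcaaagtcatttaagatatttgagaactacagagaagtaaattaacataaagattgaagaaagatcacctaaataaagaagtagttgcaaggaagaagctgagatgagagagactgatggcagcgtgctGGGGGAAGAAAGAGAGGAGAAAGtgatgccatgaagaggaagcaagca
SCHLAP1 intron 5: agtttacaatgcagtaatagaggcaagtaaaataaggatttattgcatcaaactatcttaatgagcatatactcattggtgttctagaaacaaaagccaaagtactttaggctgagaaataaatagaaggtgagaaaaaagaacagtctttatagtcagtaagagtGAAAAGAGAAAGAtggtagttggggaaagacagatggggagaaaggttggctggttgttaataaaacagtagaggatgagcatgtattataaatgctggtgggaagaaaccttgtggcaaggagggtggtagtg
Both runs are purine runs. They were set against windows of 300 bases centred on 242 of the 1009 places that all 4 lists share, since most of those places were narrower than a window and were left out. In the 242 the median longest run of purines or pyrimidines was 11 bases. The run of intron 1 is 23 bases long, and 6 of the 242 windows had a run that long on either strand. That of intron 5 is 13 bases long, reached by 100 of the 242. The G+C shares were 35.3% and 37%, against a median of 43% over those windows. Reads on the strand opposite SCHLAP1 were few, 23 in PSF-RIP and 15 in input over all libraries, where its own introns held 9635 and 1358.

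**Figure D4:**
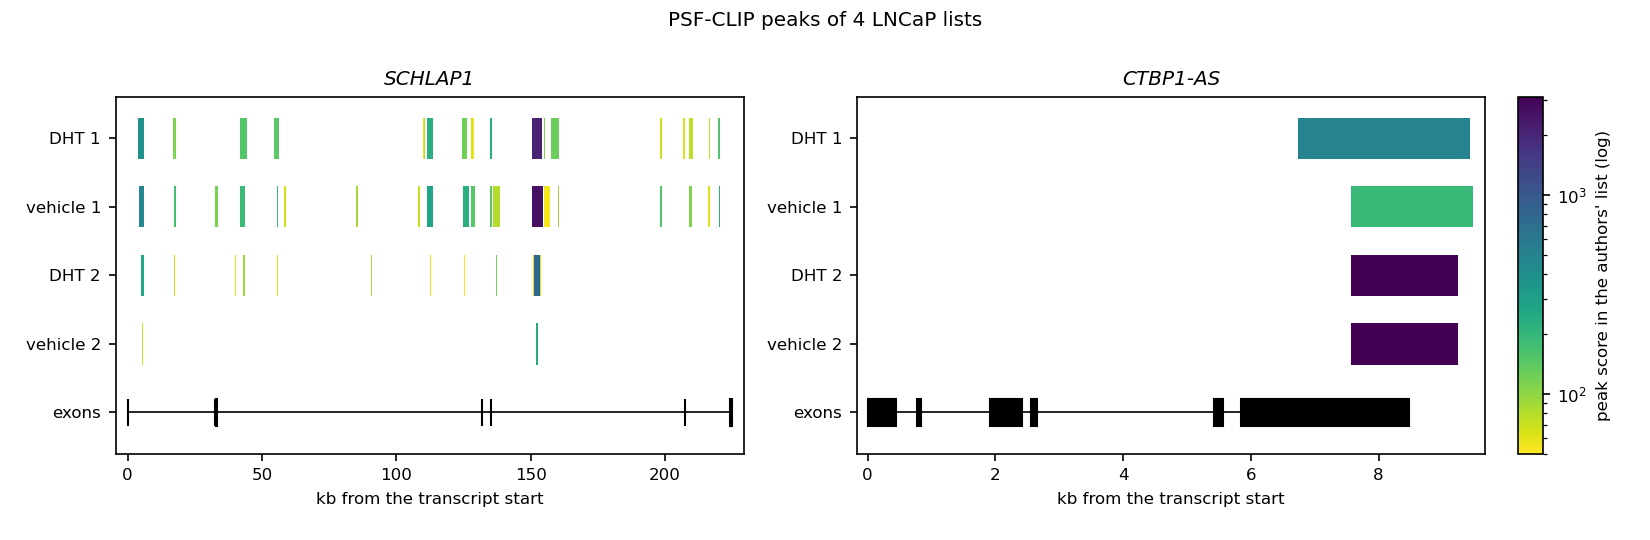
PSF-CLIP peaks in SCHLAP1 (left) and CTBP1-AS (right) by distance in kb from the transcript start (x axis), 1 row for each of the 4 LNCaP lists, coloured by the authors' peak score on a log scale, with exons as black boxes at the bottom. SCHLAP1 peaks narrower than 0.4 kb are drawn at that width; 2 places of SCHLAP1 and the last exon of CTBP1-AS carry a peak in all 4 lists.

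Over all 9 spans the lists held 27 and 15 peaks with DHT and 25 and 3 with vehicle. Counted by RNA, 4 and 3 of 9 had a peak in the DHT lists, and 3 and 2 of 9 in the vehicle lists, against 31% and 21.3% of all gene symbols with DHT and 32.1% and 9.62% with vehicle. PCA3 (NR_015342, hg19 chr9:79379352-79402485), which lies whole inside PRUNE2 on the other strand, had 6 and 2 peaks with DHT and 4 and 0 with vehicle, with scores from 50.9 to 149. Its own exons held 2 reads in PSF-RIP and 1 in input, whereas the opposite strand held 284 reads in PSF-RIP and 58 in input (log2 -0.04 ± 0.33, adjusted p = 0.944). PRUNE2 exons were higher in PSF-RIP than in input by 0.66 ± 0.11 (adjusted p = 3.46e-05). OIP5-AS1 had 1 peak, in intron 3 in the first DHT list, with a score of 60.9. PCAT1, PCGEM1, DRAIC, SOCS2-AS1 and DANCR had 0 peaks in all 4 lists.

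DANCR and OIP5-AS1 were lower in PSF-RIP than in input. DANCR (NR_024031, hg19 chr4:53578621-53580305, plus strand) was at 24.4 and 32.3 CPM in 22Rv1 PSF-RIP with DHT and vehicle, 49.5 and 53.3 in LTAD and 80.0 and 88.2 in LNCaP. In input it was at 55.5 and 75.1 CPM in 22Rv1, 126 and 174 in LTAD and 192 and 166 in LNCaP. Each PSF-RIP library lay below its input, and the fitted difference was log2 -1.27 ± 0.11 (adjusted p = 2.59e-09, edgeR). OIP5-AS1 (NR_026757, hg19 chr15:41576201-41591795, plus strand) was at 37.7 and 40.1 CPM in 22Rv1 PSF-RIP, 11.4 and 14.8 in LTAD and 16.1 and 14.5 in LNCaP. In input it was at 99.1 and 88.5, 34.7 and 32.3, and 34.8 and 28.8 CPM in the same order. All 6 pairs again had the lower value in PSF-RIP, with a fitted difference of -1.24 ± 0.12 (adjusted p = 2.71e-08).

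With CTBP1-AS higher and these 2 lower, 3 of 6 tested RNAs were called in PSF-RIP against input, where 58% of all genes were called, 30.5% higher and 27.5% lower. With the line and treatment pairs as a block 5 were called, SCHLAP1 higher and SOCS2-AS1, which then passed the filter, lower (log2 -1.54, adjusted p = 0.00748). SOCS2-AS1 passed it only through input libraries, so that call partly reflects the filter. The median over the 6 was -0.19, against 0.05 over all 13367 genes. PCAT1 had 99 reads in PSF-RIP and 26 in input (ratio 0.79, exact 95% interval 0.509 to 1.27, adjusted p = 0.999), and DRAIC was at -0.38 ± 0.21 (adjusted p = 0.137). Of 44 other long noncoding RNAs, 21 were tested; 4 were called higher and 8 lower, with a median of -0.39. The 3 with the smallest p were TERC, the telomerase RNA (-2.35 ± 0.12, adjusted p = 1.70e-12), NEAT1, the paraspeckle scaffold (-0.99 ± 0.10, adjusted p = 4.03e-08), and MALAT1, a nuclear speckle RNA (1.24 ± 0.16, adjusted p = 1.65e-06). With DHT, 1 of the 21 was called in PSF-RIP, NKILA at 0.95 ± 0.23 (adjusted p = 0.0479), and leaving out any line, or any treatment pair of 22Rv1 or LTAD, ended that call (adjusted p from 0.0606 to 0.194). In input 0 were called by edgeR, with 4 at an unadjusted p under 0.05 and 1 called by DESeq2.

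The introns of DANCR and OIP5-AS1 did not share the lower exon values. DANCR introns held 368 reads in PSF-RIP and 59 in input (log2 0.44 ± 0.24, adjusted p = 0.204), and OIP5-AS1 introns held 541 and 112 (0.12 ± 0.20, adjusted p = 0.725). The introns of SOCS2-AS1 were at -0.38 ± 0.44 (adjusted p = 0.588). None of these passed the threshold, and the difference between exon and intron rows was not tested. Intron rows were scaled apart from exon rows in the fits, so their fitted log2 differences have separate zero points. In DANCR, 358 of the PSF-RIP reads and 53 of the input reads were in intron 2, which hosts SNORA26, a small nucleolar RNA that guides pseudouridylation. SNORA26's own row held 4 to 10 reads in each PSF-RIP library and at most 1 in each input. OIP5, the coding gene after OIP5-AS1, was lower in PSF-RIP by -1.06 ± 0.29 (adjusted p = 0.00385), a call lost without 22Rv1 (adjusted p = 0.174) and with the length trend removed (adjusted p = 0.0977). UBE2E3 was lower by -0.94 ± 0.14 (adjusted p = 1.18e-05), and SOCS2 (-0.26 ± 0.20, adjusted p = 0.266) and USP46, a deubiquitinase gene (0.24 ± 0.11, adjusted p = 0.0607), were not called, though USP46 passed without the expression filter (adjusted p = 0.0412), without the 22Rv1 vehicle pair (0.0266) and with the pairs as a block (0.043). PCAT29, the RNA after DRAIC, did not pass the filter and had 24 reads in PSF-RIP and 4 in input.

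**Figure D5:**
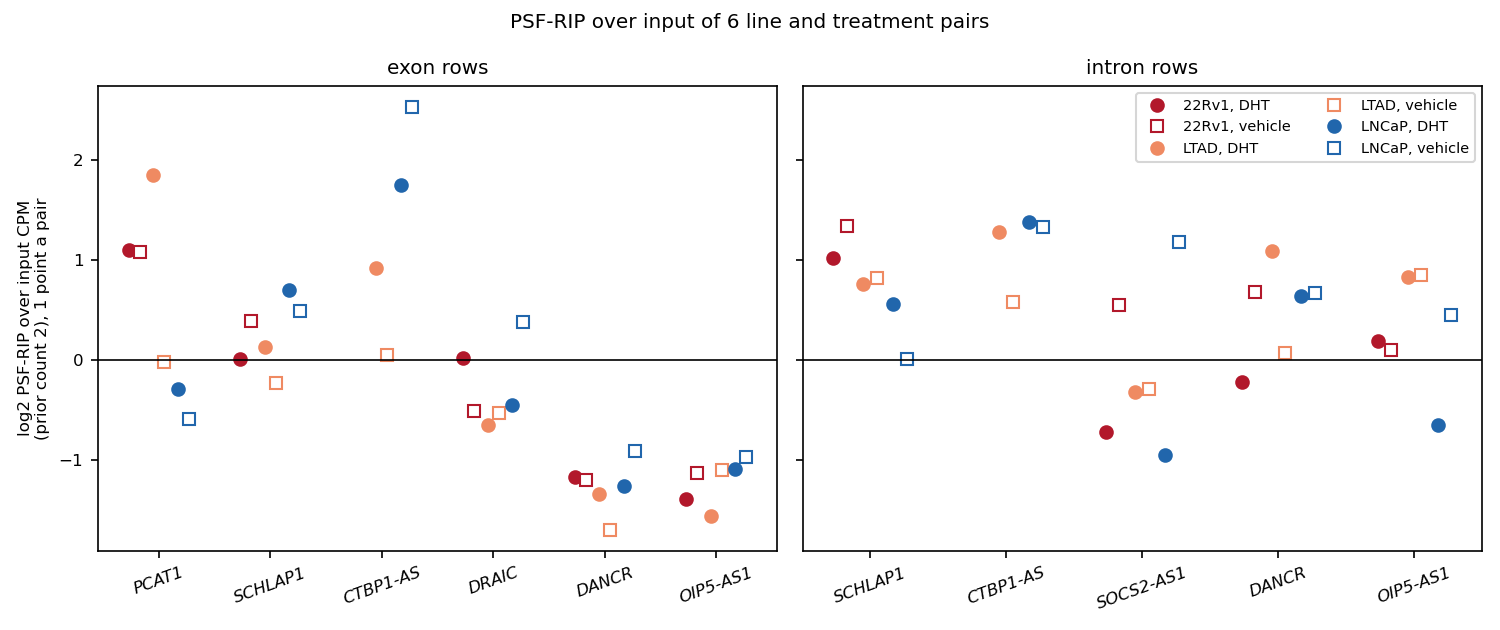
PSF-RIP over input (y axis, log2 ratio of CPM with a prior count of 2) of exon rows (left) and intron rows (right) for each line and treatment pair, with colour by line, filled circles for DHT and open squares for vehicle; CTBP1-AS has no 22Rv1 reads and no points there. All 6 exon pairs of DANCR and OIP5-AS1 lie below 0, and all 6 intron pairs of SCHLAP1 lie above 0, the lowest of them LNCaP vehicle at 0.02.

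The lines were compared within each assay, and comparisons with LNCaP share its libraries. Between 22Rv1 and LNCaP input, 6 of 7 tested RNAs were called, 5 lower and 1 higher, where 49.9% of all genes were called, 23.3% lower and 26.6% higher. The median over the 7 was log2 -1.79, against 0.00 over all genes. Lower in 22Rv1 were DANCR (-1.47 ± 0.19, adjusted p = 5.90e-05), SCHLAP1, CTBP1-AS, SOCS2-AS1 and PCAT1. OIP5-AS1 was higher, by 1.56 ± 0.20 (adjusted p = 6.65e-05), and so was the coding gene OIP5, by 3.38 ± 0.73 (adjusted p = 0.00239, and 0.0529 without the 22Rv1 vehicle pair). PRUNE2 was lower in 22Rv1 (-1.60 ± 0.15, adjusted p = 6.14e-06), and CTBP1 (-0.11 ± 0.15, adjusted p = 0.549) and USP46 (-0.48 ± 0.20, adjusted p = 0.0647) were not called. In PSF-RIP 5 of 7 were called, 4 lower and OIP5-AS1 higher (1.35 ± 0.18, adjusted p = 5.01e-05), where 61.1% of all genes were called. In 22Rv1 input CTBP1-AS and SOCS2-AS1 had 0 reads, and PCAT1 had 0 with DHT and 1 with vehicle. These RNAs passed the expression filter only through libraries of other lines, so the counts and the median above partly reflect that filter. The same limit holds for them in PSF-RIP and in 22Rv1 against LTAD, and for PCAT1 in LTAD against LNCaP in both assays.

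PCAT1 (NR_045262, hg19 chr8:128025399-128033259, plus strand) had few reads outside LNCaP. There were 0 and 1 reads in 22Rv1 input with DHT and vehicle, 0 and 1 in LTAD, and 10 and 14 in LNCaP. The ratio to LNCaP was 0.0331 in 22Rv1 (exact 95% interval 0.000805 to 0.203) and 0.0484 in LTAD (0.00118 to 0.297). In PSF-RIP it had 3 and 15 reads in 22Rv1, 12 and 8 in LTAD, and 26 and 35 in LNCaP, and its level was lower than in LNCaP by log2 -2.35 ± 0.48 in 22Rv1 (adjusted p = 0.000994, edgeR) and -2.37 ± 0.46 in LTAD (adjusted p = 0.00414). PCAT1 passed the expression filter only through LNCaP libraries, where it was highest, so these p-values partly reflect that filter. The strand opposite PCAT1 carried 137 reads in PSF-RIP and 23 in input, against 99 and 26 on its own exons, and the antisense difference of 0.40 ± 0.48 did not pass (adjusted p = 0.555).

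Between LTAD and LNCaP input, PCAT1 was the only one of 7 called (adjusted p = 0.0295), where 8.21% of all genes were, 2.93% higher and 5.28% lower, and leaving out any 1 of the 6 line and treatment pairs ended that call. The genes called numbered 1131, and 443 to 875 with a pair left out. In PSF-RIP 4 of 7 were called lower in LTAD, where 19.9% of all genes were called, 7.93% higher and 12% lower: PCAT1, SCHLAP1, CTBP1-AS (-1.85 ± 0.30, adjusted p = 0.00225) and DANCR (-0.71 ± 0.17, adjusted p = 0.0115). Without the LTAD vehicle pair PCAT1 (adjusted p = 0.0659) and DANCR (adjusted p = 0.0765) lost the call, and PCAT1 also with DESeq2 (adjusted p = 0.0849). In both assays PCAT1 was among the 7 through LNCaP libraries only. Between 22Rv1 and LTAD, 4 of 7 were called in input (48.5% of all genes) and 3 of 7 in PSF-RIP (64% of all genes): CTBP1-AS, DANCR and OIP5-AS1 in both assays, and SOCS2-AS1 in input, where it had 0 reads against 9 (at least 4.39-fold lower, adjusted p = 0.0216). The SOCS2-AS1 call was lost with DESeq2 (adjusted p = 0.0856), without the 22Rv1 DHT pair (0.536) or vehicle pair (0.0588) and without the LTAD DHT pair (0.112). In PSF-RIP SOCS2-AS1 stood at -2.24 ± 0.97 (adjusted p = 0.0627) and passed with the length trend removed (0.0434). SCHLAP1 was at -0.69 ± 0.37 in input (adjusted p = 0.136) and -0.50 ± 0.24 in PSF-RIP (adjusted p = 0.0814). It passed in input without the 22Rv1 DHT pair (adjusted p = 0.0457), and in PSF-RIP without the expression filter (0.047) and without the LNCaP DHT (0.0415) or vehicle pair (0.0451). PCAT1 was not called, with 1 input read in each line and 18 against 20 PSF-RIP reads. DANCR was lower in 22Rv1 than in LTAD by -1.18 ± 0.19 in input (adjusted p = 0.000338) and -0.85 ± 0.17 in PSF-RIP (adjusted p = 0.000943), and OIP5-AS1 was higher by 1.49 ± 0.21 (adjusted p = 0.000111) and 1.58 ± 0.18 (adjusted p = 8.49e-06). DRAIC (NR_026979, hg19 chr15:69854059-69863779) was the RNA with no call in any of these line comparisons, at 1.06 ± 0.50 in 22Rv1 (adjusted p = 0.0974) and 1.40 ± 0.51 in LTAD (adjusted p = 0.118) against LNCaP input.

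No difference in enrichment between lines passed the threshold. Of the 6 that could be estimated for 22Rv1 against LNCaP and the 7 for LTAD against LNCaP, 0 passed, as did 0 of 13776 genes (0%) in either comparison by edgeR, with 0 of the set, 804 and 718 genes at an unadjusted p under 0.05. With the line and treatment pairs as a block, 413 and 274 genes passed and still 0 of these RNAs; DESeq2 called 7 and 0 genes. DANCR, the most deeply covered, differed by log2 -0.09 ± 0.25 in 22Rv1 and -0.43 ± 0.25 in LTAD, and SCHLAP1 by -0.44 ± 0.40 and -0.64 ± 0.39.

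Across the 12 libraries, with levels centred within each assay, the genes whose levels followed each RNA most closely were chosen by Pearson's r among 6686 genes of at least median count. They were LGMN, a lysosomal protease gene, for PCAT1 (r = 0.97), MME, which encodes neprilysin, for SCHLAP1 (0.96), PRDX6, a peroxiredoxin gene, for CTBP1-AS (0.96), ZNF639 for DRAIC (0.92), TC2N for DANCR (0.98) and ZDHHC20, a palmitoyltransferase gene, for OIP5-AS1 (0.99). The next were MFSD14A and PRCP, FAM120C and DAD1, HIST2H2BE and SERPINB6, SMAD3 and CD24, RPL37 and METTL8, and CYP51A1 and PVR, for the RNAs in the same order. The 12 points share 3 lines, and no p is given. As many as 795 genes reached 0.9 for OIP5-AS1, and 1 did for DRAIC.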

How the data were processed

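RNA from 12 libraries (3 lines, DHT or vehicle, PSF-RIP or input) was compared, and LNCaP CLIP peaks were read from 4 lists. The deposited counts are whole numbers of reads per RefSeq transcript, intron and antisense strand of hg19, not normalized, per the file headers; the exonic length there gave RPKM. Per the submitters' processing notes Bowtie2 2.2.6, TopHat2 2.1.0 and Bowtie were used on hg19 (GRCh37); their settings are not stated. The library kit is one for target enrichment, per the labels, and capture can change levels between genes. The peak score in column 5 is the authors' own, from the deposited lists, whose names show MACS. The second LNCaP set (12 value columns) was not used, since its labels contradict each other.

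A gene was the transcript row with the highest mean count, and its introns and antisense strand were those of that transcript, since introns of isoforms overlap. Isoforms share reads. Tests were edgeR 4.0.16 quasi-likelihood fits over all genes (R 4.3.3, filterByExpr, TMM, Benjamini-Hochberg threshold 0.05). PSF-RIP against input had terms for line, treatment and assay; the others used 1 model over 12 libraries (line by assay, treatment by assay; 4 residual degrees of freedom). Each kind of fit was first tested on simulated data. Exact intervals (95%) cover counting error only, and the floor is 3 reads over a group. Input and PSF-RIP libraries of the same line and treatment are pairs, per the labels. After terms for line, treatment and assay, their residuals had correlations of -0.068 to -0.259 over 12932 genes. Those terms by themselves push such correlations below 0, so the values cannot show whether paired libraries vary together. Results with the pairs as a block are given below. Peaks needed a 1 bp overlap. Sequences are from GRCh37, and windows on chromosome 8 were left out. DESeq2 1.42.0, other scaling, no filter, left-out pairs and lines, a replicate block, the longest transcript and length correction were alternatives. The naming rule took the members with rows, and partner genes on the other strand or near them. USP46, taken as the partner of DANCR, is not adjacent to it, as USP46-AS1 and ERVMER34-1 are its neighbours. Members not named in a comparison are in its counts. Members, lists and tests were chosen with earlier results of these data known.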

Additional observations from a re-analysis of the deposited data

Results flagged for a closer look

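The DHT difference of SCHLAP1 and of the DANCR introns ran in opposite directions between lines, in both assays of each line, and these differences were not tested. SCHLAP1 exons were higher with DHT in both 22Rv1 libraries and lower in both LNCaP libraries, with mean log2 ratios 0.94 apart, and in LTAD they were 0.42 above LNCaP. SCHLAP1 introns were higher with DHT in both assays of LNCaP and of 22Rv1 and lower in both of LTAD, by a gap of 0.43 for LNCaP over LTAD and 0.59 for 22Rv1 over LTAD. DANCR introns were higher with DHT in 22Rv1 and lower in LNCaP, 0.67 apart; in LTAD they were lower by more (log2 -0.60 in PSF-RIP and -1.62 in input), the input value resting on 3 reads with DHT and 7 with vehicle. Each line has 1 library per treatment and assay, and the input values rest on few reads (27 and 16 SCHLAP1 exon reads in 22Rv1 with DHT and vehicle). Some directions rest on near-equal values. DANCR introns held 14 and 15 reads in LNCaP input with DHT and vehicle, and stood at 7.66 and 7.17 CPM in 22Rv1 PSF-RIP. In LTAD input SCHLAP1 stood at 96.9 and 100.5 CPM for introns, and at 22.85 and 22.74 for exons.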

How the results depend on the processing

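Of the called members, CTBP1-AS in PSF-RIP with DHT stayed past the threshold under every alternative that gave it an adjusted p, and the PSF-RIP against input calls of DANCR and OIP5-AS1 under every alternative. For PSF-RIP against input, 5 members passed without the expression filter and 5 with the line and treatment pairs as a replicate block, against 3 as reported; with a line or pair left out, 2 (without LNCaP) to 5 (without the LTAD vehicle pair) passed. The block turned PCAT1 to log2 -0.0367 and called SCHLAP1, the partner gene USP46 and SOCS2-AS1, the last let in only through input libraries. It changed no other call of a member or partner gene. It moved the genes called for a difference in enrichment to 413 for 22Rv1 and 274 for LTAD against LNCaP, from 0 in both. Without the filter, 1 member passed for DHT in input, 2 for LTAD against LNCaP in input, 2 for DHT in introns and 2 on the antisense strand, where DRAIC entered (log2 -2.43, adjusted p = 0.00176). DESeq2 called 0 members with DHT in PSF-RIP, 0 for LTAD against LNCaP in input and 1 for introns in PSF-RIP; it gave no adjusted p to CTBP1-AS (2.23) in the first or to PCAT1 (-4.32) in the second. With the length trend removed, 2 passed for LTAD against LNCaP in input.

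With pairs or lines left out, the members called ranged from 0 to 1 for LTAD against LNCaP in input, 2 to 4 for the same lines in PSF-RIP, 1 to 2 for introns and 1 to 2 for the antisense strand in PSF-RIP against input. Of the other long noncoding RNAs, DESeq2 and the fit without the filter each called 1 with DHT in input; in PSF-RIP, DESeq2 called 2, no filter 3, the length correction 2, and left-out pairs or lines 0 to 2. Genes called with DHT numbered 399 in PSF-RIP and 85 in input as reported, and 938 and 394 without the filter; leaving out 22Rv1 gave 94 and 24, and DESeq2 gave 143 in input. For LTAD against LNCaP in PSF-RIP, 2739 genes were called as reported, 1381 by DESeq2 and 1163 to 2214 with a pair left out; in input the lowest number with a pair left out was 443 for the same lines (1131 as reported), 4033 for 22Rv1 against LNCaP (6874) and 3930 for 22Rv1 against LTAD (6683). For DHT in introns the numbers were 153 as reported, 54 by DESeq2 and 274 without the filter, and for antisense rows 946 and 1511 without it. CLIP peaks in the members numbered 70, of which 44 (14 of 27 and 7 of 15 in the DHT lists) lay at or above their list's median score. The cause of these changes was not tested.

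Some values that never passed the threshold turned in direction. In PSF-RIP against input PCAT1 stood at -0.0014 for the longest transcript and at -0.2595 to 0.4146 with pairs or lines left out. On the same leave-outs SOCS2 ranged from -0.4264 to 0.0211, SOCS2-AS1 introns from -0.6974 to 0.0483, OIP5-AS1 introns from -0.0667 to 0.3582, the PCAT1 antisense strand from -0.02 to 0.8236 and the PCA3 antisense strand from -0.6419 to 0.5684 (0.4566 without the filter). CTBP1 between 22Rv1 and LNCaP input ranged from -0.2579 to 0.0412, and the enrichment difference of DANCR between those lines from -0.3713 to 0.1841. Of 32 member values not printed that passed in no fit, 14 turned under at least 1 alternative. Removing the length trend shifted the median of all genes by -0.12 for 22Rv1 against LTAD in PSF-RIP; no other scaling shift exceeded 0.1. Reading the CLIP lists by strand could not be run. Depth limits PCA3, PCGEM1, SOCS2-AS1 and PCAT1, whose values rest on few reads.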
